A study of Mus musculus with 9 samples.

Results

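Among the homeobox genes of limb and head mesenchyme, 10 non-Hox factors were followed in mouse embryonic fibroblasts (MEFs): Pitx1, Shox2, Alx4, Lmx1b, En1, Lhx9, Meox2, Dlx1, Dlx2 and Otx1. They are 10 of the 19938 genes with a probe set here, were picked by name as clues to the part of the embryo from which each culture came, and each has 1 probe set. The choice was made with their levels on these arrays already known, so their levels and differences are given as a description, with no p-value, and calls among them are counted only to set them beside all genes. Arrays were run on RNA of 3 genotypes, with 3 arrays of each: TM (lacking PRDX4 and mutated in both ERO1 isoforms), DM (mutated in both ERO1 isoforms) and the reference called wild type (WT) in the labels. All 9 samples are labelled C57B/L6 in background and as MEFs transformed by T antigen. The methods name primary MEFs for some figures and T antigen immortalized MEFs for others, and do not say which were arrayed. The methods on cell isolation, which name mid-gestation embryos as the source, give the control MEFs as Ero1α m/+ and Ero1β m/m, an Ero1β state that DM and TM cells share, with Ero1α m/m in both mutants and Prdx4 m/y in TM. Prdx4 is given there as +/+ in control and DM cells. No source states that the triplicates are from separate embryos or cultures, so each p-value rests on a spread among arrays that may be technical alone, and genotype, embryo and culture (and, for DM, sex) cannot be told apart.

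Homeobox genes encode transcription factors that bind DNA through a shared fold, the homeodomain, and many of them mark where in the embryo a cell arose. PITX1 specifies hindlimb identity and takes part in jaw formation, LMX1B gives the dorsal side of the limb its identity, and EN1 acts in ventral limb ectoderm and at the boundary of midbrain and hindbrain. DLX1 and DLX2, from a pair of adjacent genes, pattern the first pharyngeal arch and the forebrain. Cultured fibroblasts are known to keep part of the positional code of their site of origin, which is why such factors are read in MEFs, a mixed population from the body of the embryo.

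Most of these factors had less mRNA in TM and in DM MEFs than in WT MEFs, and Lhx9 had more in both. In TM against WT MEFs, 7 of the 10 were lower and 2 higher by more than 1.5-fold with an adjusted p (limma) below 0.05, the rule by which a gene is called here, where 3.56% of all genes were called lower, 5.59% higher and 9.15% in either direction. In DM against WT MEFs, 7 were lower and 2 higher, where 5.67% of all genes were lower, 5.28% higher and 10.9% in either direction. The balance over all genes in DM against WT turned with the scaling, as 48.2% of the called genes were higher on the deposited scale, 38.9% after median centring, 54.1% after cyclic loess and 50.7% after quantile normalization. TM and DM were set against the same WT arrays. In TM against DM MEFs, 2 were higher and 2 lower, where 4.68% of all genes were higher, 3.61% lower and 8.29% in either direction. The median difference of the 10 was -0.73 on the log2 scale in TM and -0.84 in DM against WT, beside -0.03 and 0.02 over all genes. As the genes were picked with these contrasts in view, nothing is read from the counts. The arrays of TM and WT, and those of DM and WT, did not overlap in any of the 10, as in 43.4% and 46.4% of all genes. TM and DM arrays did not overlap in 9 of the 10, as in 40.1% of all genes.

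**Figure D1:**
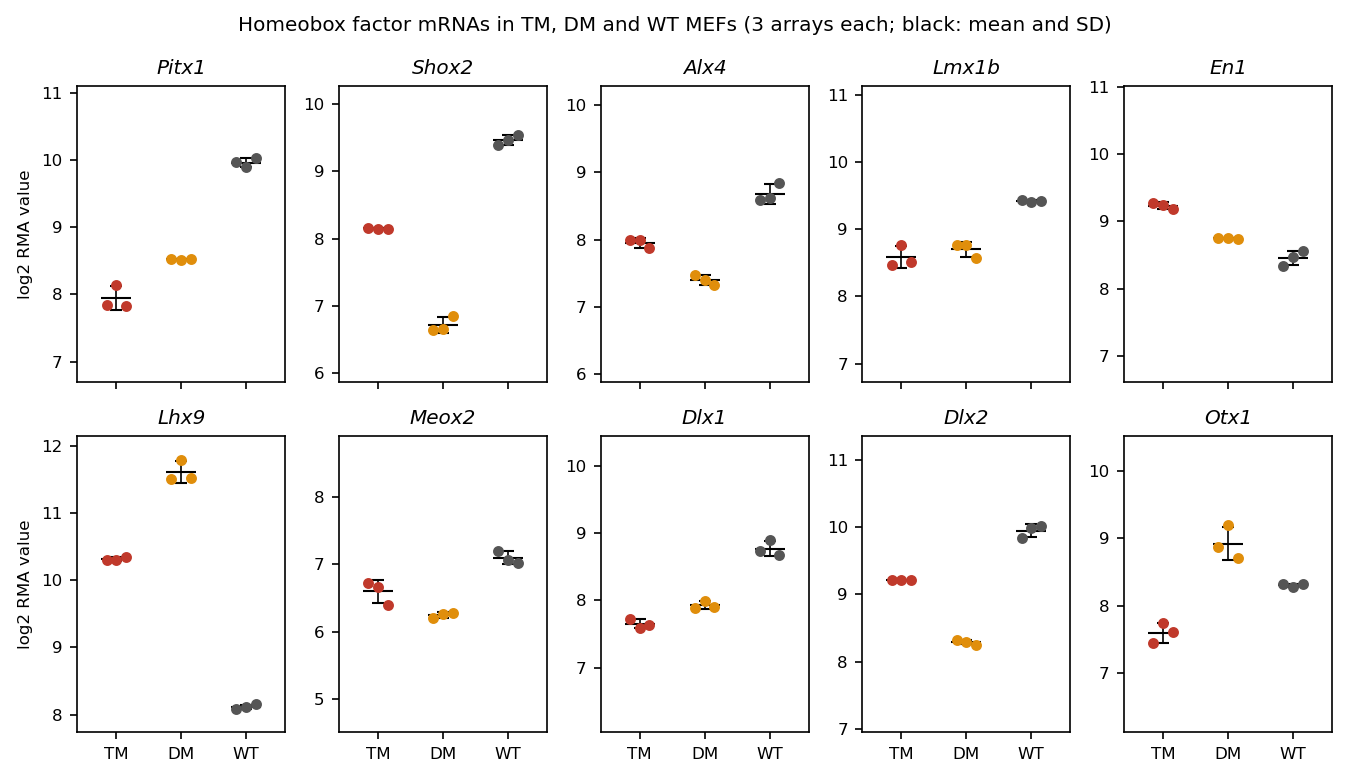
Log2 RMA value (y axis) of each homeobox factor in TM (red), DM (orange) and WT (grey) MEFs (x axis). Points are single arrays, black bars give mean and SD (n = 3 arrays of each genotype), and all panels span the same number of log2 units. WT MEFs are highest in 7 panels, DM in 2 (Lhx9 and Otx1) and TM in 1 (En1).

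For the factors with a promoter in the RefSeq table of GRCm38.p6 (7 of 10), the 250 bases before the listed start were read. The windows of 4 are printed: Shox2, Dlx2 and Meox2, which share the order WT, then TM, then DM from high to low, and En1, which was highest in TM MEFs. These are the 4 whose listed start is also the outer end of the gene. Capitals mark, on either strand, the homeodomain core TAATTA, the core TAATCC preferred by PITX and OTX proteins, the TATA box sequence TATAAA and the CCAAT box.
Shox2 (chr3:66981772-66982021, minus strand): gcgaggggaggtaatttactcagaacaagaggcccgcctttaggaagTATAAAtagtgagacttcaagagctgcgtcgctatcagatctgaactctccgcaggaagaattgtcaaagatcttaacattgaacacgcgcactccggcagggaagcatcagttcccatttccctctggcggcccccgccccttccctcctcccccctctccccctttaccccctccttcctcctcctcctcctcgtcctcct
Dlx2 (chr2:71546755-71547004, minus strand): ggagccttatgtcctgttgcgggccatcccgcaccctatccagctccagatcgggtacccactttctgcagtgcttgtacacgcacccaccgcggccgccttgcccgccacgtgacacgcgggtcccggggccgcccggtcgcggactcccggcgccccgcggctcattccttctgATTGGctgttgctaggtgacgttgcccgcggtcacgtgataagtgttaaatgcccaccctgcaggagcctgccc
Meox2 (chr12:37108290-37108539, plus strand): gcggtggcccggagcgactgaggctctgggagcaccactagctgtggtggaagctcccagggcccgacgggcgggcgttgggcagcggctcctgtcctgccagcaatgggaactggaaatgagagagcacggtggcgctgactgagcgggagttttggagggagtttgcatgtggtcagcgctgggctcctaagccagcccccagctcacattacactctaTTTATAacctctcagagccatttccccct
En1 (chr1:120602237-120602486, plus strand): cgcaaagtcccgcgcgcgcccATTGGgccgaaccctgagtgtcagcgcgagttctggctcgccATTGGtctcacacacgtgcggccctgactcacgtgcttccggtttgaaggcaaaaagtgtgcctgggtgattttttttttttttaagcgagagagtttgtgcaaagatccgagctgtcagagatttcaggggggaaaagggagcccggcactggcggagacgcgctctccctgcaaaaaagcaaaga

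TATAAA lay in the windows of Shox2 and Meox2, while 12.4% of all 32851 promoter windows of this length hold it. In Shox2 it lay toward the end of the window far from the start, and in Meox2 on the opposite strand. Whether either match acts as a TATA box was not tested. CCAAT lay in those of Dlx2 (1 match) and En1 (2 matches), against 33.8% of all windows. TAATTA lies in 4.84% of all windows and TAATCC in 6.25% of them. The windows of the 7 factors hold neither core, which says only that these letters are not in these windows. CpG dinucleotides numbered 11 in Shox2, 24 in Dlx2, 12 in Meox2 and 19 in En1, against a median of 6 over all windows. None of these motifs was found in all of Shox2, Dlx2 and Meox2 and missing from En1.

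Among the limb factors, Pitx1 was lowest in TM MEFs. Its log2 level was 7.85, 8.15 and 7.84 on the TM arrays, 8.53, 8.51 and 8.53 on the DM arrays and 9.97, 9.89 and 10.03 on the WT arrays. Every WT array lay above every mutant array, and every DM array above every TM array, with TM replicate 2 the nearest to DM. The difference was -2.02 (SE 0.081) in TM against WT, or 4.05-fold, -1.44 (SE 0.081) in DM against WT, or 2.71-fold, and -0.58 (SE 0.081) in TM against DM, or 1.49-fold. In TM against WT this was the 44th lowest difference of the 19938 genes.

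Shox2, a factor that shapes the proximal limb skeleton, the palate and the cardiac pacemaker, was lowest in DM MEFs. The log2 levels were 8.16, 8.15 and 8.15 on TM arrays, 6.64, 6.66 and 6.85 on DM arrays, and 9.39, 9.47 and 9.54 on WT arrays. The 3 genotypes stood apart, with gaps of 1.23 between the nearest TM and WT arrays and 1.30 between the nearest TM and DM arrays. Against WT the difference was -1.31 (SE 0.068) in TM, or 2.49-fold, and -2.75 (SE 0.068) in DM, or 6.72-fold, the 28th lowest of all genes. TM was above DM by 1.44 (SE 0.068), or 2.70-fold. On the DM arrays, the Shox2 level was also below the median of all probe sets, which was 7.62 to 7.72 on the 9 arrays.

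Alx4, which takes part in limb polarity and in forming the skull and face, kept the same order as Shox2 over a smaller range. TM arrays read 7.99, 7.99 and 7.87, DM arrays 7.47, 7.40 and 7.32, and WT arrays 8.59, 8.61 and 8.85 on the log2 scale. The genotypes did not overlap. The difference against WT was -0.73 (SE 0.077) in TM and -1.29 (SE 0.077) in DM, and that of TM against DM was 0.55 (SE 0.077), just under the 1.5-fold limit of 0.585.

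Lmx1b was the 1 factor in which TM and DM arrays overlapped. Its log2 levels were 8.46, 8.77 and 8.52 on TM arrays, 8.76, 8.77 and 8.57 on DM arrays, and 9.43, 9.40 and 9.42 on WT arrays. Both mutants lay below every WT array. The difference against WT was -0.83 (SE 0.083) in TM and -0.71 (SE 0.083) in DM, and the difference of TM against DM, -0.12 (SE 0.083), was within the spread of the arrays.

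En1 ran the other way. TM arrays read 9.28, 9.24 and 9.18 on the log2 scale, DM arrays 8.76, 8.76 and 8.73, and WT arrays 8.34, 8.48 and 8.56. TM MEFs were highest and WT MEFs lowest, and the nearest DM and WT arrays were 0.18 apart. The difference was 0.78 (SE 0.063) in TM against WT, or 1.71-fold, and 0.29 (SE 0.063) in DM against WT, or 1.22-fold, below the fold limit, and 0.49 (SE 0.063) in TM against DM, or 1.40-fold. En1 was the only one of the 10 highest in TM MEFs.

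Lhx9, a LIM homeobox gene of limb mesenchyme that is also needed to form the gonad, had the largest difference of the 10. Its log2 level was 10.30, 10.30 and 10.34 on TM arrays, 11.50, 11.79 and 11.53 on DM arrays, and 8.09, 8.11 and 8.15 on WT arrays. DM MEFs were highest, TM MEFs lay between, and WT MEFs were lowest, with 2.15 between the nearest TM and WT arrays. The difference was 2.20 (SE 0.074) in TM, or 4.58-fold, and 3.49 (SE 0.074) in DM, or 11.2-fold, the 46th highest of all genes, and -1.29 (SE 0.074) in TM against DM, or 2.45-fold. Its paralog Lhx2, which acts with it in the limb bud, was at 8.77 ± 0.061 in TM, 8.99 ± 0.11 in DM and 9.17 ± 0.034 in WT MEFs (mean ± SD, n = 3 arrays), with no call in any comparison.

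Meox2, a factor of somites and limb muscle precursors, was below the median of all probe sets on each of the 9 arrays. TM arrays read 6.72, 6.67 and 6.40, DM arrays 6.20, 6.26 and 6.27, and WT arrays 7.20, 7.07 and 7.02. The genotypes stood in the order WT, TM, DM, and the nearest TM and DM arrays were 0.13 apart. The difference was -0.50 (SE 0.084) in TM against WT, under the fold limit, and -0.85 (SE 0.084) in DM against WT, or 1.81-fold, and TM was above DM by 0.35 (SE 0.084).

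The head factors followed no single order. Dlx1 read 7.725, 7.592 and 7.633 on TM arrays, 7.892, 7.996 and 7.906 on DM arrays, and 8.730, 8.890 and 8.676 on WT arrays, so that TM MEFs were lowest. Dlx2 read 9.22, 9.22 and 9.21 on TM arrays, 8.32, 8.30 and 8.25 on DM arrays, and 9.84, 9.98 and 10.02 on WT arrays, so that DM MEFs were lowest. Both genes were lower in each mutant than in WT MEFs, with every array apart. The difference against WT was -1.11 (SE 0.069) in TM and -0.83 (SE 0.069) in DM for Dlx1, and -0.73 (SE 0.061) in TM and -1.66 (SE 0.061) in DM for Dlx2. These neighbours thus stood in opposite order in the mutants, at -0.28 for Dlx1 and 0.93 for Dlx2 in TM against DM, though the difference between the 2 genes was not tested.

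Otx1, a factor of the anterior brain and sense organs, was the only one of the 10 on opposite sides of WT in the mutants. Its log2 level was 7.44, 7.73 and 7.60 on TM arrays, 8.87, 9.19 and 8.70 on DM arrays, and 8.32, 8.27 and 8.31 on WT arrays. DM arrays lay above and TM arrays below all WT arrays, and DM replicate 2 was the highest of the 9. The difference was -0.71 (SE 0.11) in TM against WT, 0.62 (SE 0.11) in DM against WT and -1.33 (SE 0.11) in TM against DM. Without DM replicate 2, or with the arrays centred on their medians, the DM difference fell short of the 1.5-fold limit.

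**Figure D2:**
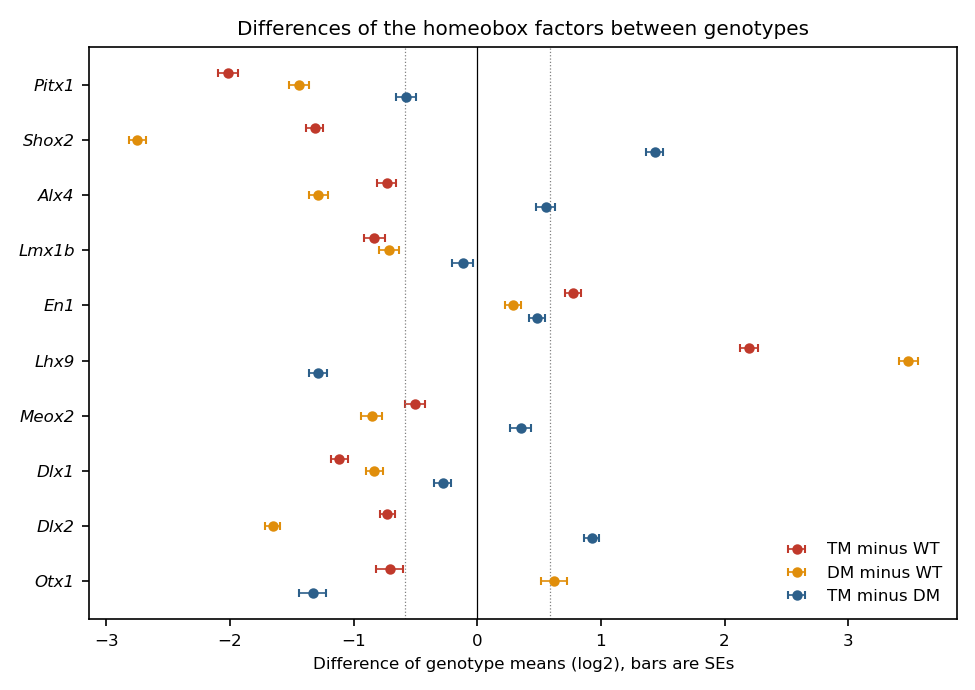
Differences of genotype means on the log2 scale (x axis) for each homeobox factor (y axis): TM minus WT in red, DM minus WT in orange, TM minus DM in blue, with SEs from the fit over all genes as bars. Dotted lines mark 1.5-fold. Lhx9 lies farthest to the right, at 2.20 in TM and 3.49 in DM against WT, and Shox2 in DM farthest to the left, at -2.75.

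Ordered by genotype, WT MEFs were highest in 7 of the 10 factors. In 4 of these (Shox2, Alx4, Dlx2 and Meox2) TM lay between WT and DM, and in 3 (Pitx1, Dlx1 and Lmx1b) DM lay between WT and TM, with the overlap given above for Lmx1b. In 7 of the 10 at least 2 arrays hold an identical value. None of the 10 has 3 identical arrays within a genotype, as 754 genes of the whole table do. Among listed genes named below, Pax3, Prrx2 and Msx2 had 3 identical WT arrays, and Prrx1 and Dcn 3 identical DM arrays. Those arrays add no spread to the fits behind their p-values.

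The genes with the most similar profiles were found by the root mean square difference over the 9 arrays, each gene centred on its own mean, for the 7 factors whose genotype means span at least 1 on the log2 scale. Closest to Pitx1 were Arhgap22 (0.13) and Stra6, which encodes a retinol uptake receptor (0.14). Shox2 was nearest to Tmcc3 (0.13) and to Pdgfc, a PDGF ligand gene (0.15). Pdgfc had differences of -1.27 in TM and -2.46 in DM against WT. As all these genes were picked for their closeness, the likeness of their differences was set by the choice. Nearest to Alx4 were Fam167a (0.069) and Fam131b (0.093), to Dlx1 Krt80 (0.069) and Ube2cbp (0.089), and to Dlx2 the glycoprotein hormone gene Stc1 (0.074) and the glutamate transporter gene Slc1a3 (0.084). Otx1 was nearest to Mpp2 (0.090) and Card19 (0.13), and Lhx9 to Prex2 (0.15) and Clca3a1 (0.19). No gene of the set was among the 2 nearest of another.

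Other homeobox factors were then counted from a list of 38 paralogs, mesenchymal factors and TALE cofactors, of which 33 were measured. Of these, 6 were higher and 4 lower in TM against WT MEFs (30.3%, beside 9.15% of all genes), 3 higher and 5 lower in DM against WT (24.2%, beside 10.9%), and 7 higher and 3 lower in TM against DM (30.3%, beside 8.29%). The list's median difference was -0.01 in TM and 0.03 in DM against WT. As this list was chosen with earlier results of these data known, its counts and p-values are given as description only. Of 10 direct paralogs, 1 was called in each comparison, Alx1, a share near that of all genes, and 5 of the 10 lay below the median of all probe sets on the 9 arrays. Like its paralog Alx4, Alx1, which is needed for the midface, was lower in both mutants. Its log2 level was 7.636, 7.674 and 7.841 on TM arrays, 6.876, 7.108 and 7.052 on DM arrays, and 10.004, 10.057 and 10.001 on WT arrays, so that all genotypes stood apart. On 5 of the 9 arrays, all TM or DM, Alx1 lay below the median of all probe sets. Alx1 fell by 2.30 in TM (adjusted p = 1.49e-10) and by 3.01 in DM (adjusted p = 8.45e-12, limma as throughout).

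The LIM factors of the first arch, Lhx8 and Lhx6, were lower in both mutants. Lhx8 read 6.19, 6.31 and 6.21 on TM arrays, 6.34, 6.41 and 6.23 on DM arrays, and 8.40, 8.44 and 8.43 on WT arrays. The mutants overlapped, and both lay below every WT array and below the median of all probe sets. Lhx8 had a difference of -2.19 in TM (adjusted p = 4.73e-11) and -2.09 in DM (adjusted p = 5.36e-11), with Lhx6 at 8.23 ± 0.092 in TM (adjusted p = 6.42e-08 against WT), 8.30 ± 0.069 in DM (adjusted p = 1.11e-07 against WT) and 9.30 ± 0.066 in WT MEFs. Six2, a factor of palate and kidney mesenchyme, fell by 3.01 in DM (adjusted p = 6.37e-12), with levels of 10.31 ± 0.13 in TM, 7.62 ± 0.014 in DM and 10.63 ± 0.091 in WT MEFs. On the DM arrays, Six2 lay below the median of all probe sets. Emx2, which acts in the forebrain and the shoulder girdle, fell by 1.35 in TM (adjusted p = 8.45e-08) and had a difference of 0.03 in DM, with -1.39 in TM against DM (adjusted p = 7.89e-08).

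Among the higher genes, Meis1, a TALE cofactor of the proximal limb, rose by 1.69 in TM (adjusted p = 1.4e-09) and 1.42 in DM (adjusted p = 6.58e-09). Its levels were 9.64 ± 0.11 in TM, 9.37 ± 0.074 in DM and 7.96 ± 0.062 in WT MEFs. Irx5 rose by 1.23 in TM (adjusted p = 1.67e-08) and 0.84 in DM (adjusted p = 5.95e-07). Rises called in TM and not in DM were those of Meis2 (1.38), Gsc (1.26), Irx3 (1.15) and Prrx1 (0.87), a general marker of limb mesenchyme, which was at 12.77 ± 0.041 in TM, 12.35 in each of the 3 DM arrays and 11.91 ± 0.0505 in WT MEFs. Of these, Meis2 (0.85), Gsc (1.32) and Irx3 (1.27) were also called higher in TM than in DM, whereas Prrx1 (0.42) was not. In DM against WT, Meis2 (0.53) and Prrx1 (0.45) were higher with all arrays apart but under the fold limit, while Gsc (-0.06) and Irx3 (-0.12) were not higher. Prrx2 (-0.72) and Pknox2 (0.74) were called in DM against WT, Pknox2 not without DM replicate 2. In TM against WT, Prrx2 had a difference of 0.58 (adjusted p = 2.93e-05), just under the fold limit and opposite in sign, and Pknox2 of -0.06. Prrx2 was higher (1.30) and Pknox2 lower (-0.80) in TM than in DM MEFs, where Msx2 (0.75) was also higher and Msx1 (-0.73) lower.

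**Figure D3:**
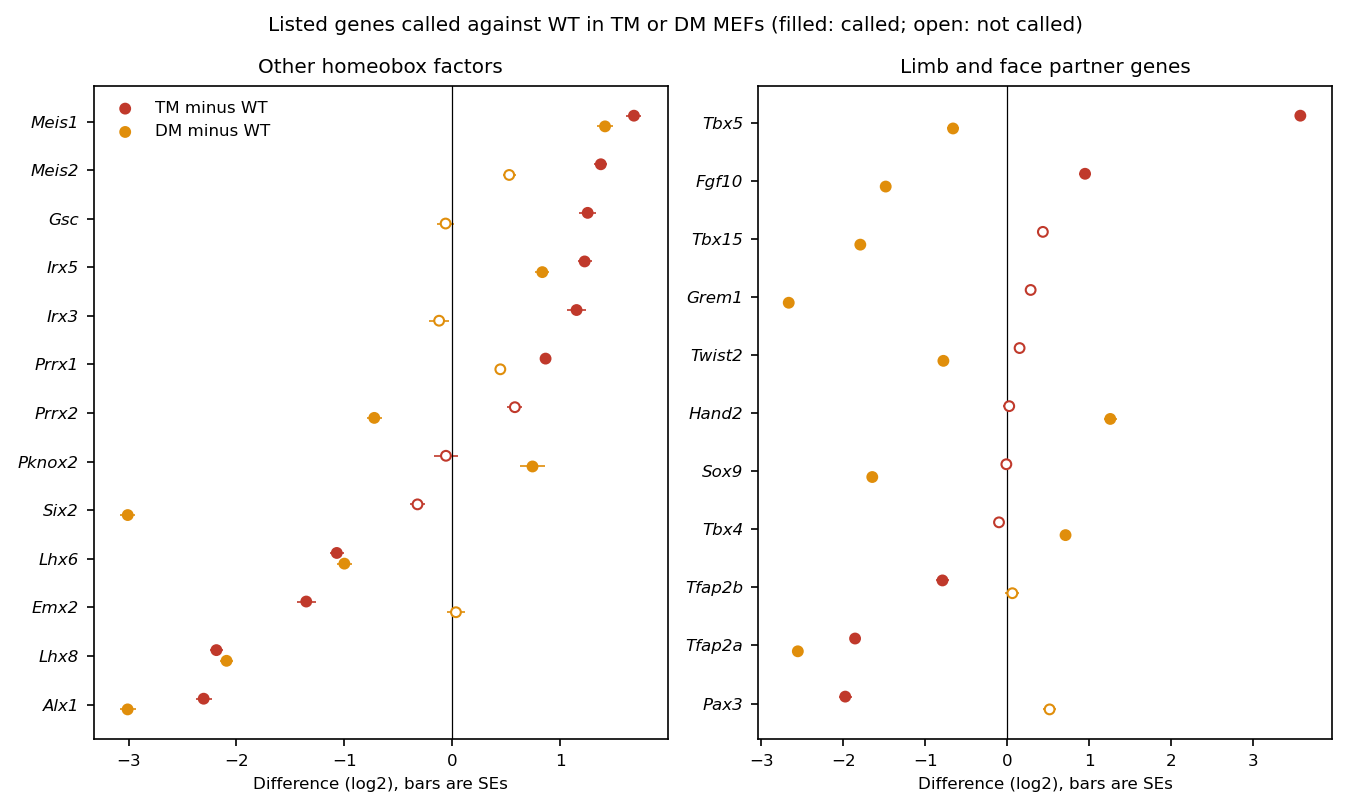
Differences against WT on the log2 scale (x axis) of the genes (y axis) called in TM (red) or DM (orange) MEFs among other homeobox factors (left) and limb and face partner genes (right). Filled points passed the call rule, open points did not, and bars are SEs. Alx1 and Lhx8 lie below -2 in both mutants, and Tbx5 lies at 3.58 in TM and -0.66 in DM.

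Partners of the factors outside the homeobox family were read from a second list, of which 25 of 26 genes were measured. In TM against WT MEFs 2 were higher and 3 lower (20%, beside 9.15% of all genes), in DM against WT 2 higher and 7 lower (36%, beside 10.9%), and in TM against DM 7 higher and 4 lower (44%, beside 8.29%). This list too was chosen with earlier results known, so its counts and p-values are given as description only. Tbx5, the T-box gene of the forelimb, read 10.45, 10.28 and 10.46 on TM arrays, 6.26, 6.11 and 6.09 on DM arrays, and 6.83, 6.78 and 6.83 on WT arrays. It was thus high in TM MEFs alone, with a difference of 3.58 in TM (adjusted p = 1.45e-12) and -0.66 in DM (adjusted p = 6.78e-06) against WT, and of 4.24 in TM against DM (adjusted p = 7.43e-13). On the DM and WT arrays, Tbx5 lay below the median of all probe sets. Tbx4, the hindlimb gene that PITX1 activates, was below the median of all probe sets on the 9 arrays, with a difference of -0.10 in TM and 0.71 in DM against WT (adjusted p = 3.74e-07 for DM). Pitx1 was lower in both mutants, and a link between these genes was not tested here.

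Tfap2a, a factor of neural crest and facial mesenchyme, was lower in both mutants. Its levels were 8.18 ± 0.018 in TM, 7.48 ± 0.082 in DM and 10.03 ± 0.057 in WT MEFs. The difference was -1.86 in TM (adjusted p = 1.5e-10) and -2.56 in DM (adjusted p = 5.42e-12). Pax3, which marks neural crest and the dorsal somite, fell by 1.98 in TM (adjusted p = 9.88e-10) and Tfap2b by 0.79 (adjusted p = 1.04e-05), while the differences in DM were 0.52 for Pax3 and 0.06 for Tfap2b. Tfap2b was below the median of all probe sets on the 9 arrays, as were Tfap2a and Fgf10 on the DM arrays and Pax3 on the TM arrays. The limb bud genes Fgf10 and Grem1 fell by 1.48 (adjusted p = 4.42e-09) and 2.67 (adjusted p = 2.42e-12) in DM. In TM, Fgf10 rose by 0.95 (adjusted p = 3.42e-07) and Grem1 had a difference of 0.29. In DM MEFs Tbx15 (-1.79), Sox9 (-1.65) and Twist2 (-0.78) were also lower and Hand2 (1.26) was higher than in WT.

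Genes beside the factors on the chromosome were checked, with 1 measured gene on each side, which gave 19 genes. Called were 3 in TM against WT (15.8%, beside 9.15% of all genes), 2 in DM against WT (10.5%, beside 10.9%) and 2 in TM against DM (10.5%, beside 8.29%). C130021I20Rik, a gene that overlaps the Lmx1b locus in the RefSeq table, was the 1 neighbour called lower in both mutants. It read 7.75, 7.82 and 7.66 on TM arrays, 7.61, 7.68 and 7.36 on DM arrays, and 9.29, 9.12 and 9.21 on WT arrays, and the mutants overlapped as they did in Lmx1b. C130021I20Rik fell by 1.46 in TM (adjusted p = 3.33e-08) and 1.66 in DM (adjusted p = 8.75e-09). This gene has 2 probe sets, and these values are those of the brighter alone. Whether the probes of the 2 genes read separate transcripts was not tested.

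Ptx3, which encodes a secreted pentraxin and lies 746 kb from Shox2, rose by 2.44 in TM (adjusted p = 1.18e-11) and 1.35 in DM (adjusted p = 1.89e-09), opposite to Shox2. Rsrc1, which overlaps the Shox2 locus on its other side, had the sign of Shox2. Its differences against WT were -0.31 in TM and -0.53 in DM, with arrays apart and no call. Insig2 beside En1 fell by 0.59 in TM (adjusted p = 6.15e-05), and Dennd1b beside Lhx9 was lower in TM than in DM MEFs, with a difference of -0.63 (adjusted p = 5.22e-06). Both lie near the fold limit and lost the call without single arrays, Insig2 without WT replicate 1, WT replicate 2 or TM replicate 2, and Dennd1b without DM replicate 3. Dlx1as, annotated across Dlx1, was below the median of all probe sets on the 9 arrays, with differences of 0.07 in TM and 0.05 in DM against WT, where Dlx1 differed by -1.11 and -0.83.

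Facts of the arrays as a whole bear on these values. Ero1a was 9.06 ± 0.076 in TM, 9.46 ± 0.052 in DM and 11.86 ± 0.020 in WT MEFs, and Prdx4 was 6.30 ± 0.41 in TM, 10.68 ± 0.22 in DM and 10.56 ± 0.11 in WT MEFs. The arrays thus followed their labels for these genes. Ero1b differed from WT by 0.29 in TM and 0.05 in DM with no call. The methods give Ero1β as m/m in control cells too, so Ero1b does not check the labels. Xist, which coats the silenced X of female cells, was at 5.72 ± 0.099 in TM, 12.56 ± 0.068 in DM and 5.70 ± 0.053 in WT MEFs, and the Y-linked Eif2s3y had a difference of -2.01 in DM and 0.06 in TM against WT. The DM arrays thus had the pattern of female cells and the other 6 that of male cells, so in DM against WT and in TM against DM, genotype and sex cannot be told apart. The methods give the control cells as Prdx4 +/+, which the paper's cross lists for females, unlike the male pattern of the WT arrays. Pearson correlations of the arrays were 0.994 to 0.997 within a genotype and 0.976 to 0.984 between genotypes. The 10 fibroblast markers averaged 11 to 11.1 on TM arrays, 10.1 on DM arrays and 10.4 on WT arrays. In DM against WT, Pdgfrb (1.18) and Dcn (1.14) were called higher and S100a4 (-2.28), Pdgfra (-1.92) and Col1a2 (-1.71) lower, and in TM against WT, Thy1 (2.93), Lum (2.07), Dcn (1.83) and Pdgfrb (1.23) higher and S100a4 (-1.46) lower. Lum was below the median of all probe sets on the 9 arrays, and Thy1 was at 10.61 in TM, 7.42 in DM and 7.67 in WT MEFs.

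Markers of other cell types moved with the DM arrays, and their part in the results above was not tested. The mean log2 level of 5 mesothelial markers was 7 to 7.13 on TM arrays, 11.3 to 11.4 on DM arrays and 7.83 to 7.88 on WT arrays. Of these, Upk3b, Wt1, Lrrn4 and Upk1b were higher in DM than in WT MEFs, Wt1 by 4.05 (adjusted p = 5.18e-13), whereas Msln had a difference of -1.43 in DM (adjusted p = 1.52e-09) and -3.61 in TM (adjusted p = 7.56e-13). The 7 epithelial markers averaged 7.37 to 7.46 on TM arrays, 8.25 to 8.38 on DM arrays and 7.69 to 7.72 on WT arrays, with Krt18 (2.69), Cdh1 (1.14) and Krt14 (0.84) called higher in DM against WT. Krt19 (-0.40) and Epcam (-0.34) were under the fold limit in DM against WT, and Krt19 was called lower in TM (-1.81). Beside Lhx9, which was highest in DM, the 4 gonad markers averaged 7.60 to 7.69 on TM arrays, 7.71 to 7.79 on DM arrays and 7.70 to 7.76 on WT arrays. None of the 4 was called. In DM against WT, Inha (0.39) was higher and Star (-0.24) and Amh (-0.17) lower with arrays apart. Beside Otx1, Dlx1 and Dlx2, which also act in the brain, the 9 markers of neurons and neural tube averaged 7.66 to 7.70 on TM, 6.83 to 7 on DM and 7.35 to 7.40 on WT arrays. Called members of that list went in different directions. The neural progenitor gene Sox2 was at 8.94 in TM, 6.64 in DM and 9.57 in WT MEFs, Map2 at 10.02 in TM, 7.97 in DM and 9.29 in WT MEFs, and Stmn2 at 9.38 in TM, 7.06 in DM and 7.29 in WT MEFs. In TM against WT, Sox2 was called lower (-0.63) and Map2 (0.73) and Stmn2 (2.10) higher, and in DM against WT Sox2 (-2.94) and Map2 (-1.32) lower. The other 6 of the 9 lay below the median of all probe sets on every array. The lists for muscle, cartilage and bone, endothelium, leukocytes, and neural crest and glia averaged under 7.4 on every array. Of their members, Cd68, Actc1, Col2a1 and Myod1 lay above the median of all probe sets on every array. In these bulk samples, fewer cells of a type and less RNA per cell cannot be told apart.

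**Figure D4:**
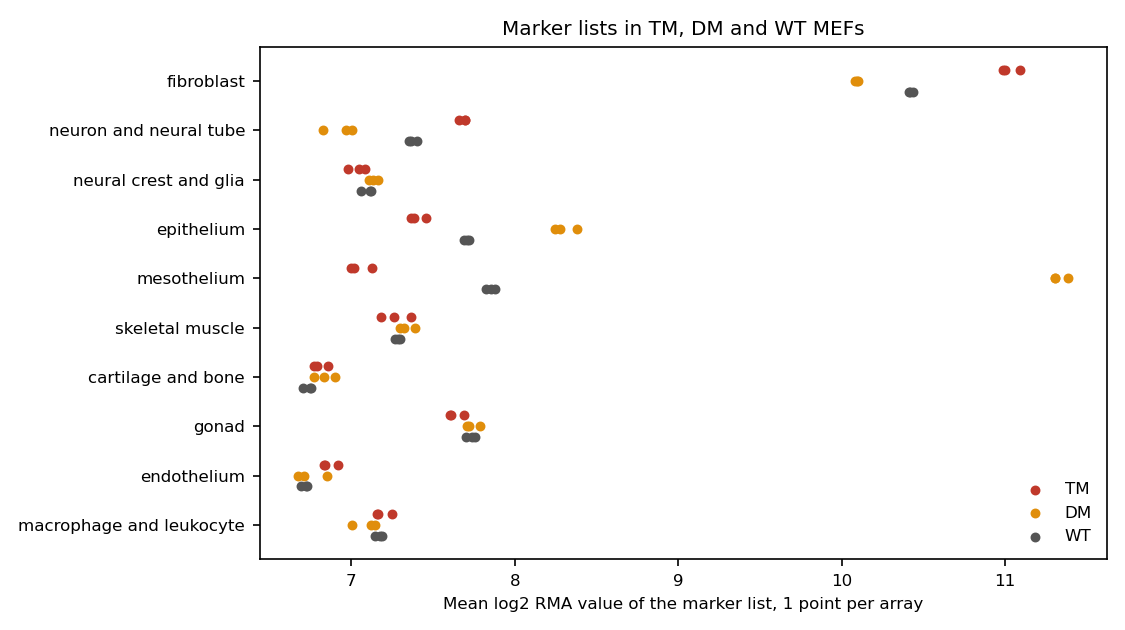
Mean log2 RMA value of each cell type marker list (x axis, 1 point per array) for the lists named on the y axis, in TM (red), DM (orange) and WT (grey) MEFs. The mesothelial markers lie at 11.3 to 11.4 on DM arrays, apart from 7 to 7.13 on TM and 7.83 to 7.88 on WT arrays.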

How the data were processed

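RNA of TM, DM and WT MEFs, in triplicate, was hybridised to Affymetrix Gene ST arrays, which have 1 colour. The authors deposited log2 values for each probe set on each array, made with RMA per the submitters' processing notes (version not given). RMA removes background, equalises the distributions of the arrays and combines the probes of a set, so differences in total signal were lost before deposit. The sources used here give no genome build for the probes. Of 35556 probe sets, 21789 had 1 gene symbol, 1621 had several and 12146 had none listed, and only the first kind was named. For a gene with several probe sets the brightest over the 9 arrays stood for it (19938 genes).

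A linear model over the 9 arrays, with a mean per genotype and 6 residual degrees of freedom, was fitted with limma 3.58.1 (R 4.3.3). Calls required a Benjamini-Hochberg adjusted p below 0.05 over all genes and more than 1.5-fold, the fold limit of the methods. The fit was tested on simulated data. The 10 factors and all lists were chosen with earlier results of these data known. Among listed genes, called genes with no overlap of arrays were named, at most the 10 largest differences per list and comparison, with every called neighbour in RefSeq order (GRCm38.p6). Lhx2, Tbx4 in TM, Dlx1as, Rsrc1 and single cell type markers were named after their values were seen. Some listed genes are not analysed here. The number of arrays limits the precision. Alternatives covered scaling, dim genes, variances, probe sets, the methods' t-test, the fold limit, the replicate block and single arrays left out.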

Additional observations from a re-analysis of the deposited data

How the results depend on the processing

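The 10 factors kept the sign of every difference under the scalings, the mean of probe sets, the replicate block and the leave-one-out fits. Of 420 such values, 416 moved by less than the SD between arrays, but only the scalings could have moved them further. Each factor has 1 probe set, the replicate block is balanced, and leaving out 1 of 3 arrays shifts a mean by less than that SD. The others, all from the scalings, were Pitx1 in DM against WT with median centring (-1.51) and Lhx9 in TM against WT with median centring (2.15), quantile normalization (2.17) and cyclic loess (2.26). Called counts depended mainly on the fold limit. With no fold limit, the counts in TM against WT, DM against WT and TM against DM were 6338, 7340 and 6350 of all genes and 22, 16 and 20 of the other homeobox factors. Of the neighbouring genes 7, 6 and 4 were then called, of the partner genes 8 in TM against WT, and of the 10 factors 9 in TM against DM. Over 2-fold, they were 781, 885 and 676 of all genes, 4 and 5 of the 10 factors in TM and DM against WT, and 4 and 5 of the other homeobox factors in DM against WT and TM against DM. Over 2-fold, 3 partner genes were called in TM against WT and 7 in TM against DM, and 1 neighbouring gene in TM against DM. Leaving out single arrays gave 1 to 2 neighbouring genes in TM against DM, 1 of them lost without DM replicate 3.

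The replicate numbers did not pair the arrays, as deviations of same-numbered arrays correlated at -0.239 to 0.168 and 1 of 9 pairs passed 0.1. With the replicate block, the calls in TM against WT, DM against WT and TM against DM numbered 1824, 2184 and 1653 over all genes and 9, 9 and 4 of the 10 factors, and no list's count moved. Alx4 passed the limit in TM against DM with cyclic loess, without DM replicate 1 or without TM replicate 3, and Pitx1 without TM replicate 2. Otx1 lost the limit in DM against WT with median centring and without DM replicate 2. Insig2 lost its call in TM against WT in 5 settings (-0.58 to -0.52), Pknox2 in DM against WT without DM replicate 2 (0.58) and Dennd1b in TM against DM without DM replicate 3 (-0.57). Counts of the 10 factors under other settings were added after seeing the data. The causes were not tested.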
